A study of Mus musculus with 16 samples.

Results

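The sites examined were the 272077 CLIP peaks listed at day 3 on chromosomes 1 to 19 and X, set against the 41264 CTCF ChIP peaks of the same day. They were taken from the plus-strand and minus-strand peak lists of both day 3 CLIP libraries made with UV, 106382 peaks in replicate 1 and 165695 in replicate 2. All 4 CLIP libraries made with UV in the series held 599274 peaks. The cells were female mouse embryonic stem (ES) cells, which in culture can give rise to all tissues of the embryo. They had been kept for 3 days without LIF, the cytokine that holds ES cells undifferentiated, and in suspension. CLIP and nuclear RNA-seq came from cells labelled CAST/Ei x 129/Sv/Jae, and ChIP from cells labelled 129S1/CastEiJ x 129S1; whether these are 1 line is not stated. CLIP used UV light and beads against the FLAG tag, and the construct that carries the tag is not described in the labels. There were 2 CLIP libraries with UV, 1 ChIP library and 1 RNA-seq library at this day. The controls (CLIP with no UV, ChIP input) were not analysed here. Read depth is unknown, and the labels do not say whether the CLIP replicates were separate cultures.

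CTCF recognises DNA through its zinc fingers and occupies insulators, domain boundaries and many promoters, where it halts the cohesin complex and anchors chromatin loops. It also binds RNA. ChIP recovers DNA near the protein and CLIP recovers the RNA crosslinked to it. A CTCF molecule that held the stretch of RNA made beside its own DNA site could thus be seen by both assays at nearby positions. Contact with another stretch of the same transcript would not appear close by. The study set the RNA contacts beside the DNA sites, and the comparison below asks how close together they lie along the transcripts.

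All positions are in mouse build mm9. The RNA-seq list of day 3 held 28677 transcribed rows, each an interval on 1 strand with a value taken as FPKM. No rows overlapped on one strand. A CLIP peak was assigned to the row on its own strand that held its midpoint, and 89950 peaks of replicate 1 (84.6%) and 137977 of replicate 2 (83.3%) had such a row. Distances run from the CLIP midpoint to the midpoint of the nearest ChIP peak. CLIP peaks were narrow, with a median width of 47 and 36 bp, and ChIP peaks wide, with a median of 2005 bp, from chromatin sheared to about 1 to 2 kb. Each observed share stands beside the share of the bases of the same rows, each row weighted by its CLIP peaks. That base share is what shuffling the peaks within their rows would average to. The ratio of the observed share to the base share is 1 where CLIP peaks are spread evenly over the bases of their rows. Where CLIP peaks and ChIP centres are both unevenly placed along rows, for example near transcript starts, the ratio can differ from 1 for that reason alone. Intervals are exact 95% binomial intervals, cover counting error only and treat peaks as independent, which neighbouring peaks of one transcript are not. No p-values were computed, since no groups of samples were compared.

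Inside transcripts, CLIP peaks lay at nearly the distances from CTCF DNA sites that the rows alone would give, apart from a deficit close to the ChIP centre. The median distance was 13.9 kb in replicate 1 and 13.4 kb in replicate 2, and the medians over the bases of the same rows were also 13.9 and 13.4 kb. The lower quartiles were 5.50 and 5.36 kb, against 5.46 and 5.35 kb for the bases, and the upper quartiles 30.4 and 28.8 kb, against 30.4 and 28.9 kb. CLIP peaks and the bases of their rows thus had nearly the same quartiles of distance in both libraries. Most of these peaks came from 1 library alone. A same-strand peak of the other library overlapped 13.0% of them in replicate 1 and 8.36% in replicate 2. Quartiles for those peaks alone were not computed.

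The deficit was within 250 bp of the ChIP centre, a distance step chosen after the values were seen. In replicate 1, 986 peaks lay that close, 1.096% against 1.29% of the bases, a ratio of 0.8501 (interval 0.798 to 0.904). In replicate 2, 1590 peaks did, 1.15% against 1.31%, a ratio of 0.878 (0.835 to 0.922). Both libraries were below 1 by more than their gap, with a mean ratio of 0.864 ± 0.0195 (SD, n = 2). From 250 to 500 bp the ratios were 0.963 and 0.976, and from 500 bp to 1 kb 0.971 and 0.994, with intervals that contained 1 in both libraries. Between 1 and 25 kb the ratios ran from 0.994 to 1.01.

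**Figure D1:**
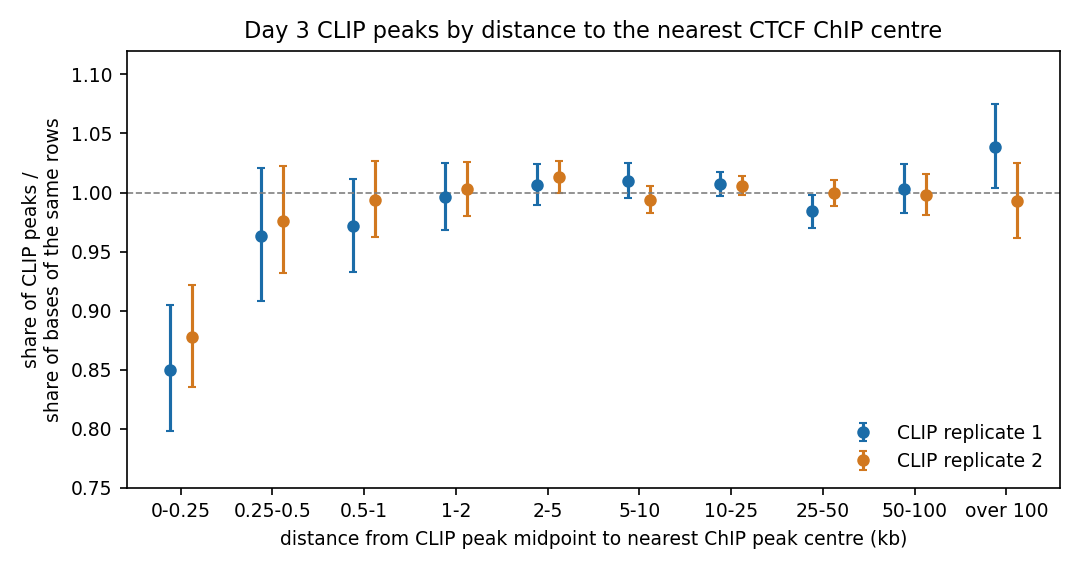
The plot of ratios by distance shows, for each step of distance from the CLIP midpoint to the nearest ChIP centre (kb), the share of CLIP peaks divided by the share of the bases of the same rows, with exact 95% intervals for each of the 2 CLIP libraries. Both libraries are lowest at 0 to 0.25 kb (0.8501 and 0.878) and lie close to the dashed line at 1 from 1 kb outward.

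Within 1 kb, the window fixed for the main value, 4410 peaks of replicate 1 lay near a ChIP centre (4.90%, 4.76 to 5.05) and 7024 of replicate 2 (5.09%, 4.98 to 5.21). The base shares were 5.22% and 5.30%, so the ratios were 0.939 and 0.961, a mean of 0.95 ± 0.0152 (SD, n = 2). The choice of the comparison set its direction. Of all bases in all rows, whether or not they carried CLIP peaks, 4.52% lay within 1 kb of a ChIP centre, and against that share the mean ratio was 1.11 ± 0.0294. Rows weighted by their CLIP peaks thus held a larger share of bases near ChIP centres than all rows did, while inside those rows the share of peaks was below the share of bases.

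Around the ChIP centre the deficit was on both sides. In the 250 bp before the centre, in the sense of the RNA, the ratio was 0.844 and 0.863, and in the 250 bp after it 0.858 and 0.893. Neither side of the centre was favoured. Of the peaks within 1 kb, 50.9% and 51.7% lay 3′ of the centre, against 51.1% and 51.4% of the bases, a mean gap of 0.0710 ± 0.397 percentage points (SD, n = 2). At ChIP centres within 1 kb of a transcript start, the 3′ share was 71.1% (67.1 to 74.9) in replicate 1 and 74.9% (71.8 to 77.9) in replicate 2. The base shares there were 68.4% and 71.2%, inside the interval of replicate 1 and below that of replicate 2.

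**Figure D2:**
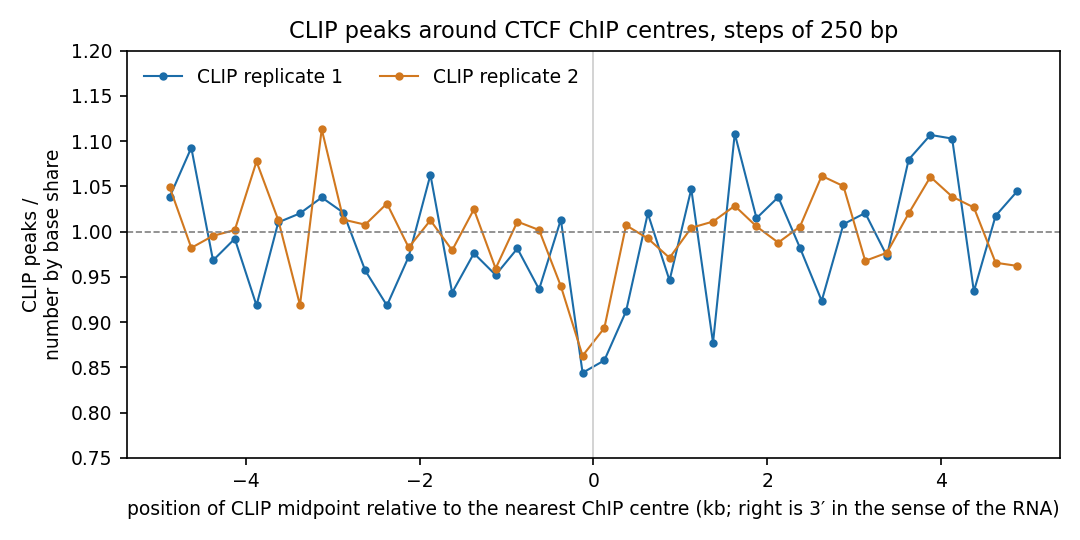
The profile around ChIP centres plots the number of CLIP midpoints in each 250 bp step divided by the number that the base share of the rows gives, against the position from 5 kb before to 5 kb after the nearest centre in the sense of the RNA, with a line for each CLIP library. Both lines drop in the steps next to the centre (0.844 and 0.858 in replicate 1, 0.863 and 0.893 in replicate 2) and scatter around 1 elsewhere. The lowest other step is 0.877 in replicate 1 (1250 to 1500 bp), not far above the steps at the centre. In replicate 2 it is 0.919 (-3500 to -3250 bp).

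CTCF binds many promoters, and the split by distance to transcript starts shows how these entered the comparison. Few CLIP peaks lay within 1 kb of a same-strand start, 4018 in replicate 1 and 6186 in replicate 2. Of these start-proximal peaks, 402 (10.0%, 9.09 to 11.0) and 669 (10.8%, 10.1 to 11.6) had a ChIP centre within 1 kb. Their rows as a whole gave 7.71% and 7.77%, so the ratio was 1.30 and 1.39, a mean of 1.35 ± 0.0664 (SD, n = 2). Against the bases of the same rows that were themselves within 1 kb of a start, 10.5% and 10.9%, the ratio was 0.957 (0.870 to 1.05) and 0.990 (0.921 to 1.06). Bases near the same starts were thus about as close to ChIP centres as the CLIP peaks were, within the intervals.

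Deeper in the transcripts the ratios were below 1 with either placement. From 1 to 10 kb of a start, 5.70% and 5.68% of peaks lay within 1 kb of a ChIP centre, against 6.07% and 5.98% of bases of the same rows in that zone (ratios 0.939 and 0.949). Over 10 kb from a start the shares were 4.29% and 4.49%, against 4.57% and 4.66% (0.940 and 0.964). Over all peaks more than 1 kb from a start, the mean ratio was 0.922 ± 0.0116 against whole rows and 0.949 ± 0.0125 against the same zone (SD, n = 2). All 4 zone intervals beyond 1 kb from a start ended below 1 in both libraries, at 0.992 or less.

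**Figure D3:**
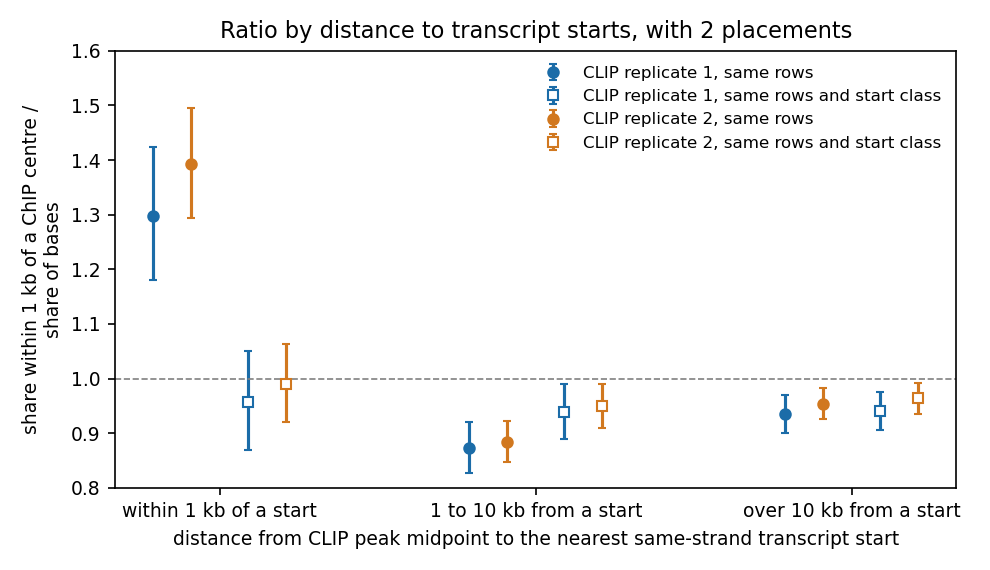
The plot by distance to transcript starts gives the ratio for 3 classes of CLIP peaks and both CLIP libraries, with filled circles for placement in the same rows and open squares for placement in the same rows and start class, and exact 95% intervals. Near starts the circles are at 1.30 and 1.39 and the squares at 0.957 and 0.990, while in the other classes every point is below 1.

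Of all ChIP centres, 6.46% lay within 1 kb of a start on either strand. ChIP centres more than 1 kb from a start on either strand had 3877 and 6222 CLIP peaks within 1 kb, with ratios of 0.935 and 0.958. Centres within 1 kb of a start had 533 and 802, with ratios of 0.973 and 0.979 and intervals that contained 1. At 250 bp the ratios were 0.848 and 0.874 for sites away from starts, with intervals below 1. For sites at starts they were 0.865 (0.709 to 1.05) and 0.906 (0.776 to 1.05), from 107 and 171 peaks, so a deficit there was not detectable at this depth.

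Along the transcript body, CLIP peaks were most frequent in the first and last parts, and bases near ChIP centres in the first and ninth. In rows of at least 10 kb cut into 10 equal parts, the first part held 11.6% and 12.1% of CLIP peaks and the last 11.5% and 11.2%. The ninth part held fewest, 9.02% and 8.79%. Bases within 1 kb of a ChIP centre made up 6.04% and 6.26% of the first part, weighted by the CLIP peaks of each library, and 4.47% and 4.45% of the fourth, the lowest. They made up 5.41% and 5.55% of the ninth part and 5.19% and 5.25% of the last, so the part with fewest CLIP peaks was not low in bases near ChIP centres. With placement kept inside the part, the ratio ran from 0.921 to 1.03 in replicate 1 and from 0.938 to 1.06 in replicate 2. The interval contained 1 in all 10 parts of both libraries.

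The remaining CLIP peaks lay outside same-strand rows. In rows of the opposite strand alone lay 1205 peaks of replicate 1 (1.13%) and 2280 of replicate 2 (1.38%), of which 8.38% (6.88 to 10.1) and 6.67% (5.68 to 7.77) were within 1 kb of a ChIP centre. The bases of those rows gave 7.01% and 6.26%, inside both intervals. In no row were 15227 (14.3%) and 25438 (15.4%), and of these 5.62% and 5.49% were that close to a ChIP centre. For peaks in no row there was no base share to set beside these values.

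At 250 bp the ratio was lower in the 2 higher-scoring groups of ChIP peaks than in the 2 lower-scoring ones, which at 1 kb held in replicate 2 alone. The scores are the authors' own and no source explains their meaning, so they only rank peaks within a list. The ChIP list was divided into 4 groups at the quartiles of score. Within 250 bp of centres in the lowest-scoring ChIP group the ratio was 0.898 and 0.982, and in the next group 0.884 and 0.889. In the third group it was 0.801 and 0.825, and in the highest 0.810 and 0.801. In the lowest group both intervals contained 1, and in the others none did. The intervals of the lowest and highest groups overlapped in replicate 1 (0.794 to 1.01 and 0.707 to 0.924). In replicate 2 they did not (0.895 to 1.07 and 0.718 to 0.892). Within 1 kb, the window fixed for the main value, the groups from lowest to highest had 0.954, 0.975, 0.867 and 0.960 in replicate 1 and 1.02, 0.965, 0.913 and 0.945 in replicate 2, with no steady order. The difference between groups was not tested.

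CLIP peaks found in both libraries had lower ratios than those found in 1, with intervals that overlapped. A peak counted as repeated when a same-strand peak of the other library overlapped it by at least 1 bp, as for 11692 in-row peaks of replicate 1 (13.0%) and 11536 of replicate 2 (8.36%). Repeated peaks are largely the same sites in both lists, so their 2 values are not independent. Within 250 bp of a ChIP centre repeated peaks had ratios of 0.775 (0.649 to 0.919, 131 peaks) and 0.758 (0.632 to 0.901, 126 peaks). Peaks of 1 library alone had 0.863 (0.806 to 0.922) and 0.890 (0.845 to 0.936). Within 1 kb repeated peaks had 0.886 (0.819 to 0.957) and 0.893 (0.825 to 0.964). The others had 0.948 (0.919 to 0.978) and 0.968 (0.945 to 0.991). CLIP peaks were also divided at the quartiles of their score, which gave groups of unequal size. From the lowest-scoring group to the highest, the ratios at 250 bp were 0.889, 0.811, 0.934 and 0.768 in replicate 1 and 0.964, 0.854, 0.854 and 0.820 in replicate 2, so the third group broke any order in replicate 1. These differences were not tested.

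**Figure D4:**
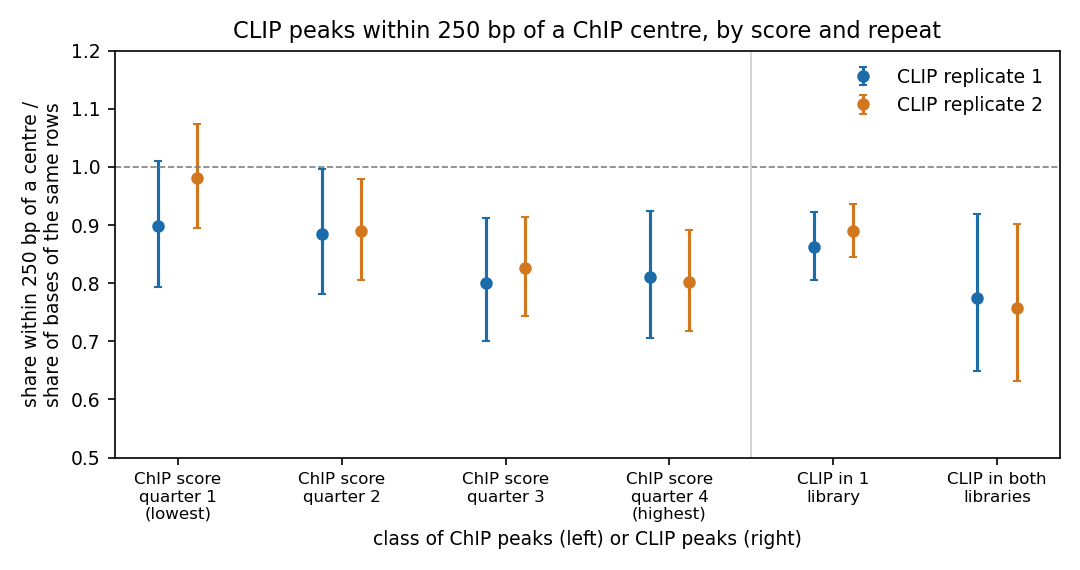
The plot of ratios within 250 bp of a ChIP centre shows 4 groups of ChIP score on the left, lowest to highest, and CLIP peaks found in 1 or in both libraries on the right, with exact 95% intervals and a color for each CLIP library. The ratio is 0.898 and 0.982 in the lowest group and 0.810 and 0.801 in the highest, and 0.775 and 0.758 for peaks found in both libraries.

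CLIP peaks near CTCF sites had widths and scores close to those of the others. Within 1 kb of a ChIP centre the median width was 47 and 36 bp, as it was farther away, and the median score 608.5 and 383, against 612 and 390. They lay in shorter rows, with a median of 53.6 and 52.3 kb against 74.9 and 67.6 kb, and more of them were within 1 kb of a start, 9.12% and 9.52% against 4.23% and 4.21%. The median FPKM of their rows was 16.6 and 15.5, against 16.7 and 15.6. Short and long transcripts gave like ratios, from 0.929 to 0.956 over 4 classes of row length in replicate 1 and from 0.949 to 0.973 in replicate 2. Rows with FPKM of 100 or more gave 0.872 and 0.980, and rows of FPKM 10 to 100 gave 0.9503 and 0.937. Rows of FPKM 1 to 10 gave 0.959 and 1.001. The gap between libraries was widest in rows with FPKM under 1, at 0.772 and 0.925, from 37 and 89 peaks near a centre.

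On X, 194 of 4322 in-row peaks of replicate 1 (4.49%) and 323 of 6494 of replicate 2 (4.97%) lay within 1 kb of a ChIP centre, against base shares of 5.003% and 5.02%. The ratios of 0.897 (0.778 to 1.03) and 0.992 (0.889 to 1.103) lay beside 0.941 and 0.959 on autosomes. At 250 bp X had 45 and 56 peaks, with ratios of 0.837 and 0.689, against 0.851 and 0.887 on autosomes. No test compared X with autosomes. Over the 20 chromosomes the ratio at 1 kb ran from 0.784 (chromosome 13) to 1.03 (chromosome 16) in replicate 1 and from 0.887 (chromosome 1) to 1.08 (chromosome 12) in replicate 2. It was below 1 in both libraries on 12 chromosomes and above 1 in both on chromosome 16 alone. At 250 bp it was below 1 in both on 15 and above 1 in both on 0.

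From the side of the DNA sites, most had no CLIP peak nearby. Of the 41264 ChIP centres, 14570 (35.3%) lay in a row on either strand. Within 1 kb of these, replicate 1 had a CLIP peak at 18.8% and replicate 2 at 27.9%, both libraries at 9.97% (1452 sites) and neither at 63.3%. All CLIP peaks of a library counted here, whatever their strand and whether or not they lay in a row. No share for other positions in the rows was computed, so these values cannot be called high or low. Sites in rows but over 1 kb from a start had CLIP peaks at 18.9% and 28.1%, and those within 1 kb of a start at 17.9% and 25.6%. Among the 26694 sites in no row the shares were 2.91% and 4.59%. The list of replicate 2 is the larger of the pair.

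Single transcripts had few CLIP peaks near CTCF sites. CLIP peaks of both libraries were found in 8518 rows, of which 57.2% held a ChIP centre, against 10.1% of the 16395 rows with no CLIP peak. The first were far longer, with a median of 29.7 against 0.627 kb. Pooled over all lengths they held fewer centres, 0.216 against 0.298 per 10 kb, but the order changed with row length. In rows of 1 to 10 kb the densities were 0.413 and 0.519, and in rows of 10 to 50 kb 0.317 and 0.315. In rows of 50 to 200 kb, those with CLIP peaks in both libraries held more, 0.226 against 0.145. In 452 rows the base share gave at least 2 peaks within 1 kb of a centre in each library. Of these, 185 had fewer than that number in both libraries, 104 had more in both, and 163 were divided or equal to it. At so few peaks a row, counting error alone scatters these ratios, and whether rows differ beyond it was not tested. Across these rows, which share the same ChIP centres and row bounds in both libraries, the ratios of the 2 libraries had a Spearman rho of 0.315.

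The rows with most repeated CLIP peaks within 1 kb of a ChIP centre are given by position, since their identifiers are assembly numbers with no gene names. Whether a position is exonic or intronic was not analysed here, and no sequence was read. The first was chr9:59504108-59527208 on the plus strand, 23.1 kb long at an FPKM of 49.1, with 4 ChIP centres. Of its CLIP peaks, 28 of 79 in replicate 1 and 33 of 107 in replicate 2 lay within 1 kb of a centre, where the base share gives 23.9 and 32.3. Its 17 repeated peaks near ChIP centres were the most of any row, though the ratios were only 1.17 and 1.02. Of the bases of this row, 30.2% lay within 1 kb of a ChIP centre.

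The second row, chr6:122677827-122692938 on the minus strand, had 16 of 43 and 24 of 74 peaks near its 2 ChIP centres, against 10.3 and 17.7 by base share. Its busiest site was at the 3′ end, chr6:122677438-122679422, 14.5 kb from the row start, with 10 and 15 CLIP peaks. The third, chr10:80639376-80645252 on the plus strand, is 5.88 kb long and had 15 of 24 and 17 of 29, against 13.9 and 16.8. The second row thus exceeded its base share in both libraries, while the third was at it.

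The 2 highest ratios among the 20 rows, averaged over libraries, came in rows with 1 ChIP centre towards the 3′ end. Row chr3:65183577-65196572 on the minus strand had 8 of 16 and 10 of 20 peaks within 1 kb of its single centre, against 2.12 and 2.65 by base share, ratios of 3.77 in both libraries. That site, chr3:65183262-65185336, lay 12.3 kb from the row start and ran past the 3′ end of the row. Against the bases of this row in the same start class as its peaks, the numbers were 5.75 and 8.05, much nearer to the 8 and 10 seen. Row chr4:153385836-153395622 on the plus strand had 6 of 7 and 8 of 11, against 1.43 and 2.25, with ratios of 4.19 and 3.56. Its site, chr4:153392905-153394923, lay 8.08 kb from the row start. With the start class kept, the numbers for the chr4 row were 1.59 and 2.51, close to those by base share. The counts are small, and these rows were ranked by CLIP peaks near ChIP centres, so their ratios are a description.

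Row chr5:53981454-54048704 on the plus strand, with 4 ChIP centres, had 16 of 42 and 17 of 88. The base share of the whole row gives 5.15 and 10.8, ratios of 3.11 and 1.58. With the start class kept, the numbers were 10.3 and 12.4, so the excess was smaller in both libraries. Other rows of high rank were divided between libraries. Row chr6:39347762-39370503 on the minus strand had 16 of 59 and 13 of 78, ratios of 1.03 and 0.631. Row chr8:34914431-35040924 on the minus strand had 17 of 292 and 28 of 234, ratios of 0.805 and 1.65. The last of these was below its base share in replicate 1 and above it in replicate 2. Over the 20 rows the ratio exceeded 1 in both libraries in 11 and was below 1 in both in 3, and together they held 5.06% and 3.86% of all in-row CLIP peaks within 1 kb of a ChIP centre.

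**Figure D5:**
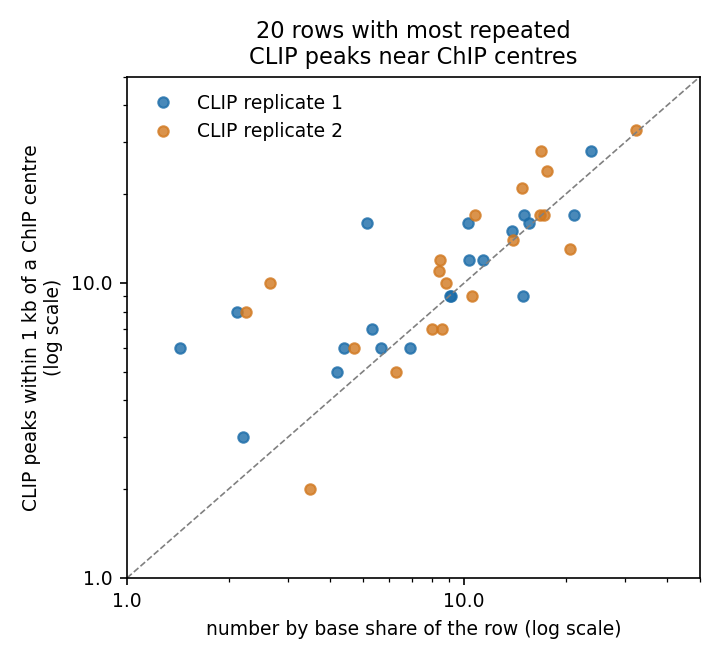
The scatter of 20 rows plots the CLIP peaks within 1 kb of a ChIP centre against the number the base share of the row gives, both on log scales, with a point per row and CLIP library and a dashed line of equality. Most points lie along the line, and the points farthest above it belong to rows with few peaks (6 against 1.43 and 8 against 2.12 in replicate 1).

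No row on X was among the 20. The highest there was chrX:12648133-12750454 on the plus strand, with 8 of 100 and 7 of 214 peaks near its 2 ChIP centres, against 3.25 and 6.96 by base share. Row chrX:98850626-98879690 on the plus strand had 4 of 26 and 10 of 71, against 1.79 and 4.89. Row chrX:100626856-100680296 on the plus strand, with 7 ChIP centres, had 13 of 36 and 20 of 103, against 9.30 and 26.6. The first of these was above its base share in replicate 1 and nearly at it in replicate 2 (7 against 6.96), the second was above it in both libraries, and the third was above it in one and below it in the other.

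Many CLIP peaks were also found on transcripts far from any ChIP centre of the day 3 list. Row chrX:148237870-148369960 on the plus strand had 157 and 256 CLIP peaks, 44 of the replicate 1 peaks repeated, and its nearest ChIP centre was 23.3 kb beyond the row. Row chr15:61869283-62082854 on the plus strand had 171 and 228 peaks, with the nearest centre 54.3 kb away. Row chr2:51928357-51978654 on the plus strand had 94 and 130, at 43.2 kb. In that order the rows were 132, 214 and 50.3 kb long, at FPKM of 33997, 2780 and 14.1, so their lengths and RNA levels differed widely. These rows came first by repeated replicate 1 peaks (44, 41 and 37) among rows with no ChIP centre within 5 kb. The third tied at 37 with chr2:129024500-129037352 on the plus strand, which had 46 and 85 peaks and its nearest centre at 17.0 kb.

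Day 0, in undifferentiated cells kept with LIF, gave ratios on the same side of 1. With day 0 rows and the first day 0 ChIP list, both day 0 CLIP libraries had a ratio of 0.973 at 1 kb, and 0.862 and 0.909 at 250 bp. With the second list, of 76745 peaks, they had 0.968 and 0.957 at 1 kb and 0.914 and 0.906 at 250 bp. All were below 1, as were the day 3 values. No test of a difference between days was made.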

How the data were processed

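CLIP, CTCF ChIP and nuclear RNA-seq lists of day 3 were used, and day 0 lists beside them. The submitters' processing notes name build mm9 and, with no roles, Cufflinks 2.1.1, TopHat2 2.0.8, bedtools 2.17.0, SAMtools 0.1.18, Novoalign 3.00.03, cutadapt 1.0 and Trim Galore 0.3.3. For the peak caller the sources name nothing. Peaks were listed per library. The deposited CLIP and ChIP lists hold the authors' score per peak. The deposited RNA-seq rows hold 1 value each, read here as FPKM because that is the unit of Cufflinks; the files name no unit. Read depth is unknown.

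Groups came from sample titles, and nothing there says that replicates were separate cultures. Peaks off chromosomes 1 to 19 and X were left out: 2 CLIP peaks, 4 ChIP peaks and 3 rows. The base share was computed exactly by interval arithmetic, with each base of a row counted alike whether or not reads can align there. The script was tested on simulated data. Python 3.11.15, NumPy 2.4.6, pandas 2.3.3, SciPy 1.17.1 and matplotlib 3.10.9 were used.

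Rows were named by rule: the 20 with most replicate 1 peaks that were repeated and within 1 kb of a ChIP centre, the 5 highest on X, and the 5 with most repeated peaks and no ChIP centre within 5 kb. Some of each are printed. The members and lists were chosen with earlier results of these data known. With no mm9 genome or annotation at hand, gene lists and a motif search were not used here.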

Additional observations from a re-analysis of the deposited data

How the results depend on the processing

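The values below are means of both CLIP libraries. The ratio at 1 kb over the same rows (0.95) was 0.917, 0.974 and 0.994 with windows of 500 bp, 2 kb and 5 kb, 0.921 with ChIP peaks above the median score, 0.931 with CLIP peaks above the median score, 0.890 with repeated peaks and 0.968 with each row counted once. It turned to 1.11 with all bases of all rows, an alternative added after seeing the data. For peaks within 1 kb of a start (1.35) it was 1.23 and 1.1002 with windows of 2 and 5 kb, 1.26 with CLIP peaks above the median score, 1.13 with repeated peaks, 1.22 and 1.18 with the day 0 ChIP lists and 1.44 with each row counted once, and turned to 0.974 with placement in the same start class, also added. For peaks over 1 kb from a start (0.922) it was 0.891, 0.957 and 0.988 with windows of 500 bp, 2 kb and 5 kb, 0.8815 with ChIP peaks above the median score, 0.906 with CLIP peaks above the median score, 0.858 with repeated peaks, 0.935 and 0.948 with the day 0 ChIP lists, 0.904 with each row counted once and 0.949 in the same start class. The ratio at 250 bp (0.864), chosen with its alternatives after seeing the data, was 0.810 and 0.842 with ChIP and with CLIP peaks above the median score, 0.767 with repeated peaks, 0.842 and 0.891 with the day 0 ChIP lists and 0.918 with each row counted once. The 3′ excess (0.0710 percentage points) was -0.42 at centres over 1 kb from a start. Leaving out either library gave 0.939 to 0.961, 1.30 to 1.39, 0.914 to 0.930, 0.8501 to 0.878 and -0.21 to 0.352 points in the same order, and 4.90% to 5.09% for the share within 1 kb. The causes were not tested. The other alternatives moved a value by less than the SD between libraries. The longest and the shortest row of a peak were always the same row. No paired analysis was possible because no groups of samples were compared. With 1 ChIP and 1 RNA-seq library, the spread of those assays did not enter any error.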
